A study of Homo sapiens with 21 samples.

Results

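MAGE-A and XAGE genes are cancer-testis antigens of the X chromosome, and 9 of them were followed here through PC-9 cells that had been sorted for low or high surface EGFR. The 9 genes were MAGEA1, MAGEA2, MAGEA2B, MAGEA3, MAGEA4, MAGEA6, MAGEA10, MAGEA12 and XAGE1C, of 20111 genes listed in each of 2 expression tables. They were chosen by their measured values in these libraries, and which comparison chose them is not recorded. Their values are therefore given as a description, with no p-value for a member. PC-9 is a human lung adenocarcinoma cell line with an activating deletion in EGFR. The genotype label reads EGFR delE746-A750 for the first library, and its last residue goes up by 1 from each library to the next, ending at A770, so the labels do not give 1 allele for the line.

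Cancer-testis antigens are made in germ cells of the testis and are kept silent in most adult tissues by methylation of CpG sites in their promoters and by repressive chromatin. Many tumours, lung cancers among them, express them again. MAGE-A proteins bind RING-type E3 ubiquitin ligases, TRIM28 being the best known partner of MAGEA3 and MAGEA6, while the cellular role of XAGE1 proteins is less clear.

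The untreated experiment held parental PC-9 cells and both sorted populations, EGFR-low and EGFR-high, with 3 libraries in each group, harvested 24 h after seeding. The second experiment held EGFR-low and EGFR-high cells given DMSO, the vehicle, or 1 µM vorinostat, an inhibitor of histone deacetylases also called SAHA, for 72 h, with 3 libraries in each of 4 groups. The EGFR-low and EGFR-high populations came from 6 rounds of sorting of the lowest or highest 5 to 10% of cells, so each was a sorted population and not a single clone. Levels are in FPKM, fragments scaled for the length of the transcript and for the size of the library, so that genes of different length can be compared. The 2 tables were normalized separately, so values from the 2 experiments are set side by side with no test between them.

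The sequences upstream of the MAGEA genes are shown first because of levels described further on. These genes were near 0 together in most libraries labelled treated EGFR-low, while 6 of them were abundant in untreated EGFR-low cells. RefSeq promoters, 250 bases before to 50 bases after a start site, were found for 7 of the 9 genes, of which 6 were MAGEA genes, with XAGE1C matched through XAGE1B, of which it is a RefSeq synonym. The longest block held by at least 1 promoter of each of the 6 MAGEA genes was GCCACTGACTTGCGC, 15 bases with 1 CpG, written in capitals in the windows and searched on both strands. The windows of the GRCh38.p14 build, written 5′ to 3′ along the gene and ending at or before its start site, were as follows.
MAGEA3, chrX:152698657-152698776, + strand: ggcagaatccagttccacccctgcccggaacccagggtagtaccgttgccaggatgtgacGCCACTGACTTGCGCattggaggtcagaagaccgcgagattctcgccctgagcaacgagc
MAGEA2, chrX:152753843-152753953, - strand: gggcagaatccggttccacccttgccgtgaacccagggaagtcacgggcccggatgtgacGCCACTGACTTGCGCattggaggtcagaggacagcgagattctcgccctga
MAGEA12, chrX:152733694-152733813, + strand: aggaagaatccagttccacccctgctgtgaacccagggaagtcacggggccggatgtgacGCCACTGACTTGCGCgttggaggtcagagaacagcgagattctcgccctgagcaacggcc
MAGEA4, chrX:151918194-151918287, + strand: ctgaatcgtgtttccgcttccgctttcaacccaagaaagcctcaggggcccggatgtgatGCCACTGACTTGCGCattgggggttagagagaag

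The whole MAGEA6 promoter was identical to that of MAGEA3 over 300 bases, and that of MAGEA2B was identical to 1 of the 2 promoters of MAGEA2. The block was present in 15 of 35116 promoters in the table (0.0427%), of 10 genes. Besides the 6 MAGEA genes these were CSAG1, CSAG3, MAGEA3-DT and MAGEA6-DT. The promoters of the MAGEA genes held 9 to 19 CpG sites in 300 bases, within the range between the quartiles of all promoters, 4 to 28. No methylation was measured here.

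The XAGE1C promoter did not hold the block. Its window is shown with CpG sites in capitals, 11 in 120 bases.
XAGE1C (XAGE1B), chrX:52517013-52517132, - strand: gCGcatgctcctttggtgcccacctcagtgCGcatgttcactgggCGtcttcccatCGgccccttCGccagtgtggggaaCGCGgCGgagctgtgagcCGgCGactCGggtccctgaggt

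How far single copies could be read apart was estimated from the GENCODE v29 transcripts, an annotation other than the one used for the deposited values. Of the 75-base stretches of MAGEA2 transcripts, 6.79% were found in no other gene, and 93.2% were shared with MAGEA2B. For MAGEA3, 57.9% were private and 42.0% were shared with MAGEA6. MAGEA4, MAGEA12 and MAGEA1 were nearly unique, at 99.5%, 95.1% and 100% private. Of the stretches of XAGE1B, which stood for XAGE1C, 23.7% were private and 76.3% were shared with XAGE1A. For this reason the sums of MAGEA2 and MAGEA2B, of MAGEA3 and MAGEA6, and of the 8 MAGEA genes are given beside the single genes.

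Seen over the whole tables, read depth is unknown since no counts were used, and no 2 libraries were identical. EGFR was 26.5 to 60.6 FPKM in untreated EGFR-low and 161 to 269 FPKM in untreated EGFR-high cells. It was 16.1 to 43.3 FPKM and 83.3 to 207 FPKM in the treated EGFR-low and EGFR-high libraries. H1F0 and CDKN1A, known to rise with histone deacetylase inhibitors, were 488 to 651 and 15.3 to 27.6 FPKM in EGFR-low cells with vorinostat, and 490.2 to 637 and 17.5 to 20.1 FPKM with DMSO. They were 219 to 291 and 3.17 to 8.93 FPKM in EGFR-high cells with DMSO, and 52.6 to 86.3 and 2.46 to 5.55 FPKM in untreated EGFR-low cells. Why both were already high in EGFR-low cells with DMSO was not tested. Epithelial markers summed to 1555 FPKM or more in every library, with 6 or 7 of 7 at 1 FPKM or more in all libraries of a group. Germ cell markers (DDX4, DAZL and 5 others) summed to at most 0.618 FPKM, none at 1 FPKM or more in any group. Markers of leukocytes, endothelial cells, fibroblasts and melanocytes summed to at most 10.4, 8.30, 5.88 and 2.26 FPKM.

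The libraries were not alike within groups, and 3 treated ones stood apart from the others of their group, which touches each comparison with DMSO and the vorinostat libraries of EGFR-high cells. Among genes above 10 FPKM in the remaining 4 treated EGFR-high libraries and below 1 FPKM in the remaining 5 treated EGFR-low libraries, 106 in all and 5 of them members, EGFR-low DMSO replicate 1 held a median of 21.7% of the EGFR-high mean. Among the 69 genes of the opposite pattern, XAGE1C included, EGFR-high DMSO replicate 3 held a median of 25.7% of the EGFR-low mean and EGFR-high vorinostat replicate 1 held 3.06%. Differences of members with DMSO are given with and without these libraries, and the other gene lists by their counts. Outside the members, 17 genes are named below for the DMSO comparison, XAGE1B among them. All were also called by limma without these libraries, in the same direction and by 1.08 to 1.47 times the log2 difference. The libraries were picked after the data were seen and lay between the populations. Leaving them out therefore widens such differences, so this is a description and no check of the calls.

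The treated EGFR-low libraries also stood apart from the untreated EGFR-low libraries. Pearson's r of log2(FPKM + 1) over 20111 genes was 0.88 to 0.90 between the 3 untreated EGFR-low libraries and the 5 treated EGFR-low libraries other than DMSO replicate 1. It was 0.94 to 0.97 between the same untreated EGFR-low libraries and the 6 treated EGFR-high libraries. Of the 106 genes near absent from treated EGFR-low cells, 58 were above 10 FPKM in all 3 untreated EGFR-low libraries and none was below 1 FPKM in all 3. Of the 69 genes of the opposite pattern, none was above 10 FPKM in any untreated library. Whether samples were mixed or exchanged, and whether the treated EGFR-low libraries came from the same cells as the untreated ones, was not tested. Each value of treated EGFR-low cells is therefore that of the libraries so labelled.

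**Figure D1:**
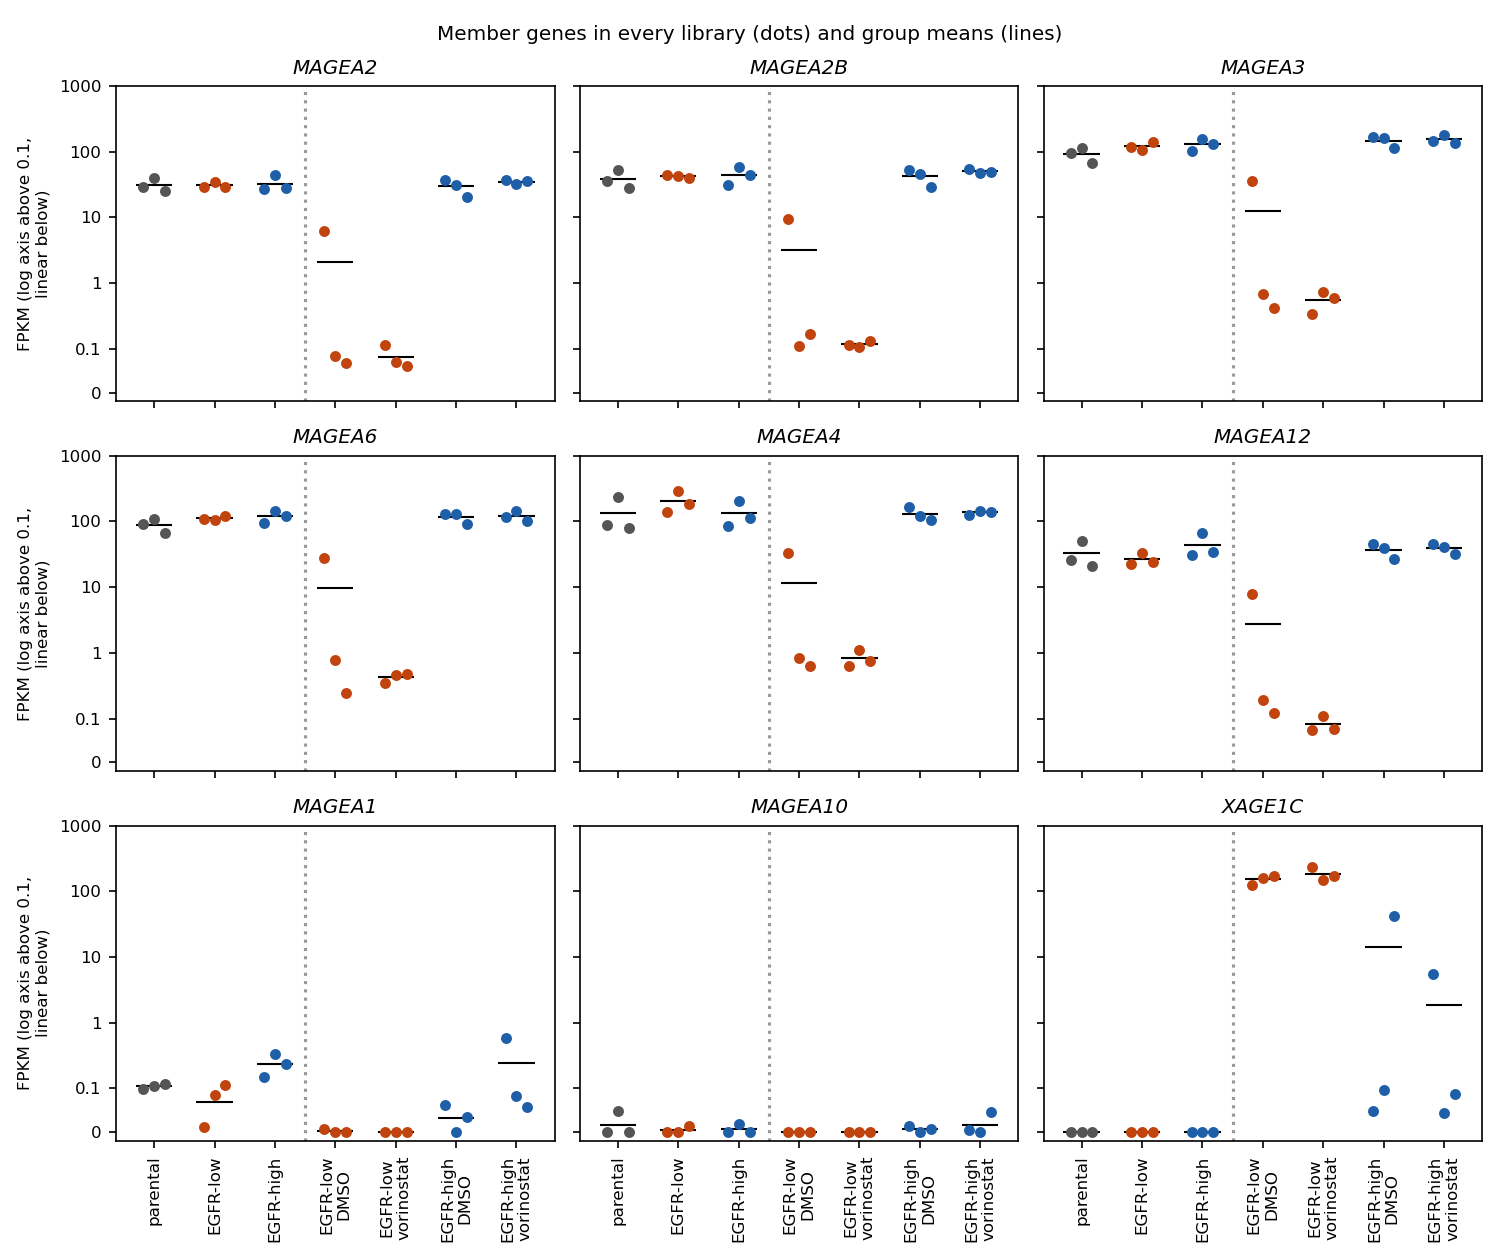
FPKM of the 9 genes in each of the 21 libraries (dots, 3 a group, in replicate order) with group means (lines), on an axis that is logarithmic above 0.1 and linear below. Left of the dotted line is the untreated experiment, where 6 MAGEA genes lay between 20.9 and 289.9 FPKM in all groups, and right of it the treated one, where they lay between 0.0613 and 1.11 FPKM in EGFR-low cells apart from 1 DMSO library, while XAGE1C lay between 124 and 237 FPKM there.

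In untreated cells the 6 expressed MAGEA genes were abundant in all 3 groups, and the ranges of EGFR-low and EGFR-high cells overlapped for each of them. MAGEA3 was 96.3, 115 and 66.8 FPKM in parental cells, 118, 106 and 143 FPKM in EGFR-low cells and 103, 155 and 131 FPKM in EGFR-high cells. MAGEA6, its near-identical copy, was 91.7, 111 and 67.4 FPKM in parental cells, 109, 107 and 121 FPKM in EGFR-low cells, and 93.9, 143 and 120.3 FPKM in EGFR-high cells. The 3 groups overlapped for both genes, and the lowest library of each was parental replicate 3. As a difference of mean log2(FPKM + 1), EGFR-low minus EGFR-high was -0.08 ± 0.21 for MAGEA3 and -0.07 ± 0.18 for MAGEA6 (SE, n = 3 a group).

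MAGEA4, a target of engineered T cells in sarcoma, had the highest level of the members in untreated EGFR-low cells. It was 88.4, 234 and 78.6 FPKM in parental cells, 139, 289.9 and 185 FPKM in EGFR-low cells, and 86.7, 205 and 113 FPKM in EGFR-high cells. Replicate 2 was the highest library of each group, and the groups overlapped. The mean of EGFR-low cells was 1.52 times that of EGFR-high cells, a log2 difference of 0.63 ± 0.48 (SE). Taken between libraries of the same replicate number, which deviated together in this comparison, EGFR-low was higher in 3 of 3 pairs, by 0.68, 0.50 and 0.71, a paired difference of 0.63 ± 0.07 (SE). MAGEA12 went the other way, at 22.3, 33.5 and 24.4 FPKM in EGFR-low and 31.4, 67.1 and 34.8 FPKM in EGFR-high cells, a log2 difference of -0.65 ± 0.38 (SE). EGFR-low was lower in 3 of 3 pairs, with a paired difference of -0.65 ± 0.16 (SE). Here too replicate 2 was the highest of each group and the ranges overlapped.

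The MAGEA2 pair made a smaller part of the family. The sum of MAGEA2 and MAGEA2B was 64.3, 92.8 and 53.1 FPKM in parental cells, 73.4, 76.9 and 69.5 FPKM in EGFR-low cells and 58.3, 102 and 71.7 FPKM in EGFR-high cells. Its log2 difference, EGFR-low minus EGFR-high, was -0.04 ± 0.24 (SE), and all EGFR-low values lay inside the EGFR-high range.

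The 8 MAGEA genes together summed to 367, 603 and 287 FPKM in parental cells, 462, 614 and 543 FPKM in EGFR-low cells and 374, 673 and 471 FPKM in EGFR-high cells. By mean the order was EGFR-low (539.5 ± 76.2 FPKM, SD), EGFR-high (506 ± 153 FPKM) and parental (419 ± 164 FPKM), and neighbours in this order did not differ beyond their spread. MAGEA3 and MAGEA6 made up 34.8 to 53.4% of the sum in the 9 libraries, and MAGEA4 made up 23.2 to 47.2%. In all, the sum was 0.0590 to 0.116% of the FPKM of a library.

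MAGEA1, MAGEA10 and XAGE1C were at or near 0 in untreated cells and were left out of the test across genes, which kept genes that reached 1 FPKM in 3 or more libraries. MAGEA1, the first tumour antigen found with patient T cells, was 0.0987 to 0.115 FPKM in parental cells, 0.0126 to 0.112 FPKM in EGFR-low cells and 0.151 to 0.329 FPKM in EGFR-high cells. The EGFR-high range lay above both others. MAGEA10 was listed at 0 in 6 of the 9 libraries and reached at most 0.0473 FPKM. XAGE1C was listed at 0 in all 9.

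In the treated experiment the same 6 MAGEA genes were near absent from EGFR-low cells, while EGFR-high cells kept levels like those of untreated cells. MAGEA3 was 36.1, 0.675 and 0.426 FPKM in EGFR-low cells with DMSO, 0.337, 0.736 and 0.605 FPKM with vorinostat, 166, 159.8 and 115 FPKM in EGFR-high cells with DMSO, and 146, 180.3 and 137 FPKM with vorinostat. EGFR-low and EGFR-high cells did not overlap, and EGFR-low DMSO replicate 1 was the single EGFR-low library above 1 FPKM. In these RNA pools, fewer cells that make a transcript and less of it in each cell cannot be told apart. As a difference of mean log2(FPKM + 1), EGFR-low minus EGFR-high was -5.03 ± 1.54 (SE, n = 3 a group) with DMSO, and -6.73 ± 0.12 (n = 2 a group) without the DMSO libraries that stood apart. With vorinostat it was -6.64 ± 0.16 (n = 3 a group).

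MAGEA4 followed MAGEA3. It was 33.2, 0.836 and 0.624 FPKM in EGFR-low cells with DMSO and 0.640, 1.11 and 0.746 FPKM with vorinostat, against 168, 120.4 and 105 FPKM and 125, 146 and 141 FPKM in EGFR-high cells. The log2 difference was -4.79 ± 1.45 (SE) with DMSO, -6.38 ± 0.26 without the libraries that stood apart, and -6.24 ± 0.13 with vorinostat. MAGEA4 thus had its highest mean of all 7 groups in untreated EGFR-low cells and its lowest means in treated EGFR-low cells.

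MAGEA12 was 7.89, 0.193 and 0.122 FPKM in EGFR-low cells with DMSO and 0.0746, 0.110 and 0.0756 FPKM with vorinostat. In EGFR-high cells it was 44.9, 39.7 and 26.7 FPKM with DMSO and 45.6, 41.1 and 32.4 FPKM with vorinostat. The log2 difference was -4.03 ± 1.01 (SE) with DMSO, -5.22 ± 0.10 without the libraries that stood apart, and -5.21 ± 0.14 with vorinostat, and the populations did not overlap. The 3 vorinostat values of EGFR-low cells also lay below the 3 DMSO values, but all were under 0.2 FPKM once DMSO replicate 1 was set aside.

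MAGEA6, MAGEA2 and MAGEA2B had the same order. The sum of MAGEA3 and MAGEA6 was 63.8, 1.45 and 0.674 FPKM in EGFR-low and 295, 290.1 and 208 FPKM in EGFR-high cells with DMSO. The sum of MAGEA2 and MAGEA2B was 15.7, 0.195 and 0.238 FPKM in EGFR-low and 91.1, 77.4 and 49.7 FPKM in EGFR-high cells with DMSO. Both pairs were thus low in EGFR-low cells however reads were divided within a pair, with log2 differences of -5.35 ± 1.68 and -4.62 ± 1.28 (SE), or -7.18 ± 0.27 and -6.13 ± 0.12 without the libraries that stood apart. With vorinostat the same differences were -7.11 ± 0.17 and -6.17 ± 0.06.

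The 8 MAGEA genes summed to 121, 2.67 and 1.66 FPKM in EGFR-low cells with DMSO and 1.63, 2.59 and 2.10 FPKM with vorinostat. In EGFR-high cells they summed to 599.8, 528 and 389 FPKM with DMSO and 526, 589 and 497 FPKM with vorinostat. By mean the order was EGFR-high with vorinostat (538 ± 46.8 FPKM, SD), EGFR-high with DMSO (505 ± 107 FPKM), EGFR-low with DMSO (41.6 ± 68.3 FPKM) and EGFR-low with vorinostat (2.11 ± 0.477 FPKM). The only neighbours in this order whose ranges did not overlap were EGFR-high and EGFR-low with DMSO, and the ratio of their means was 12.1. Without the 3 libraries that stood apart, the EGFR-high mean was 261 times the EGFR-low mean with DMSO and 258 times with vorinostat.

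The ratio of the near-identical copies varied less than the total did in untreated and in treated EGFR-high libraries. In treated EGFR-low libraries this rested on DMSO replicate 1. Without it the sum was 1.63 to 2.67 FPKM, a narrower relative range than that of the ratio of MAGEA3 to MAGEA6, both under 1 FPKM there. The ratio of MAGEA3 to MAGEA6 was 0.990 to 1.18 in the 9 untreated libraries, 1.23 to 1.33 in the 6 treated EGFR-high libraries and 0.874 to 1.72 in the 6 treated EGFR-low libraries. The ratio of MAGEA4 to MAGEA3 was 0.839 to 2.72, 0.754 to 1.03 and 0.919 to 1.90 in the same libraries, a wider range than that of the sum in untreated cells and a narrower one in treated cells. In EGFR-low DMSO replicate 1 the 6 MAGEA genes stood at 18.2 to 23.1% of their mean in the 4 EGFR-high libraries that did not stand apart. That range held the median of 21.7% of the 106 genes of this pattern.

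XAGE1C had the opposite pattern. It was 124, 161 and 168 FPKM in EGFR-low cells with DMSO and 237, 146 and 169.8 FPKM with vorinostat. In EGFR-high cells it was 0.0485, 0.0971 and 42.5 FPKM with DMSO and 5.43, 0.0430 and 0.0866 FPKM with vorinostat. All 6 EGFR-low libraries lay above all 6 EGFR-high libraries, and the EGFR-high libraries above 1 FPKM were the ones that stood apart. The log2 difference, EGFR-low minus EGFR-high, was 5.36 ± 1.79 (SE) with DMSO, 7.27 ± 0.04 without the DMSO libraries that stood apart, and 6.55 ± 0.89 with vorinostat, where it was 7.41 ± 0.21 without EGFR-high replicate 1. By mean the order was EGFR-low with vorinostat (184 ± 47.4 FPKM, SD), EGFR-low with DMSO (151 ± 23.4 FPKM), EGFR-high with DMSO (14.2 ± 24.5 FPKM) and EGFR-high with vorinostat (1.85 ± 3.10 FPKM), and DMSO and vorinostat overlapped within each population.

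EGFR-high DMSO replicate 3 held 24.1% of the mean XAGE1C level of the 5 EGFR-low libraries that did not stand apart, and EGFR-high vorinostat replicate 1 held 3.08%. The medians over the 69 genes of this pattern were 25.7% and 3.06%. The same EGFR-high DMSO library held 59.2 to 73.1% of the MAGEA levels of the other EGFR-high libraries. EGFR-high vorinostat replicate 1 held 86.5 to 115% of them, and its CDKN1A level was 21.7 FPKM against 1.79 and 3.25 FPKM in the other EGFR-high vorinostat libraries. The part of these libraries' makeup in the DMSO differences was not tested beyond leaving them out.

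**Figure D2:**
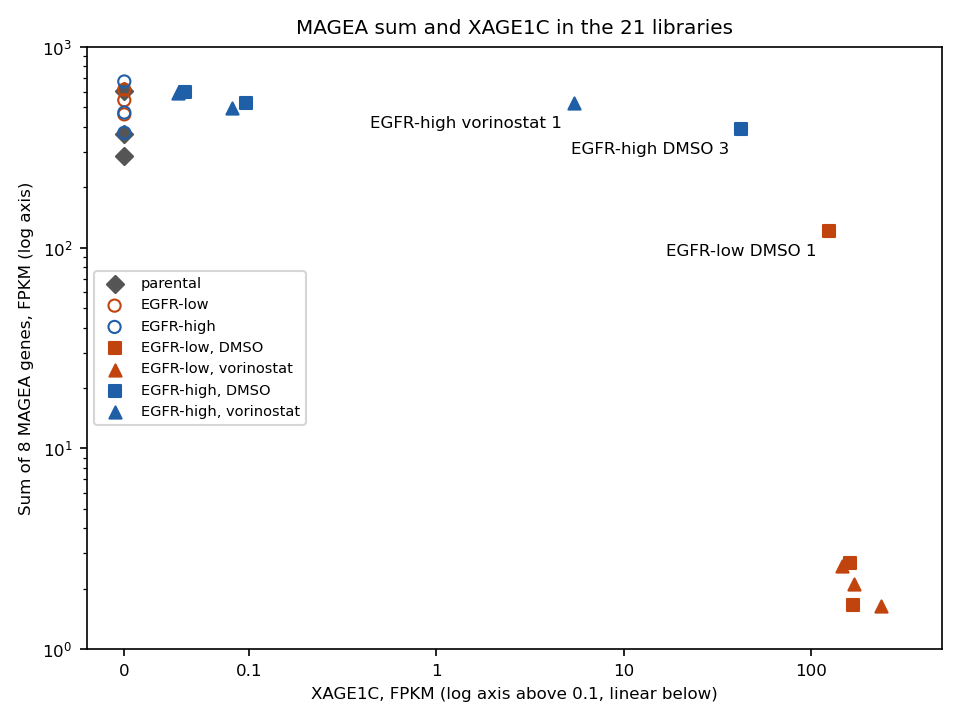
Sum of the 8 MAGEA genes against XAGE1C in each of the 21 libraries, both in FPKM (log axes, XAGE1C linear below 0.1), coloured by population with symbols for treatment. The 9 untreated libraries sit at 0 XAGE1C and 287 to 673 FPKM of MAGEA, 5 treated EGFR-low libraries sit at 1.63 to 2.67 FPKM of MAGEA, and the 3 named libraries lie between these groups on at least 1 axis.

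**Figure D3:**
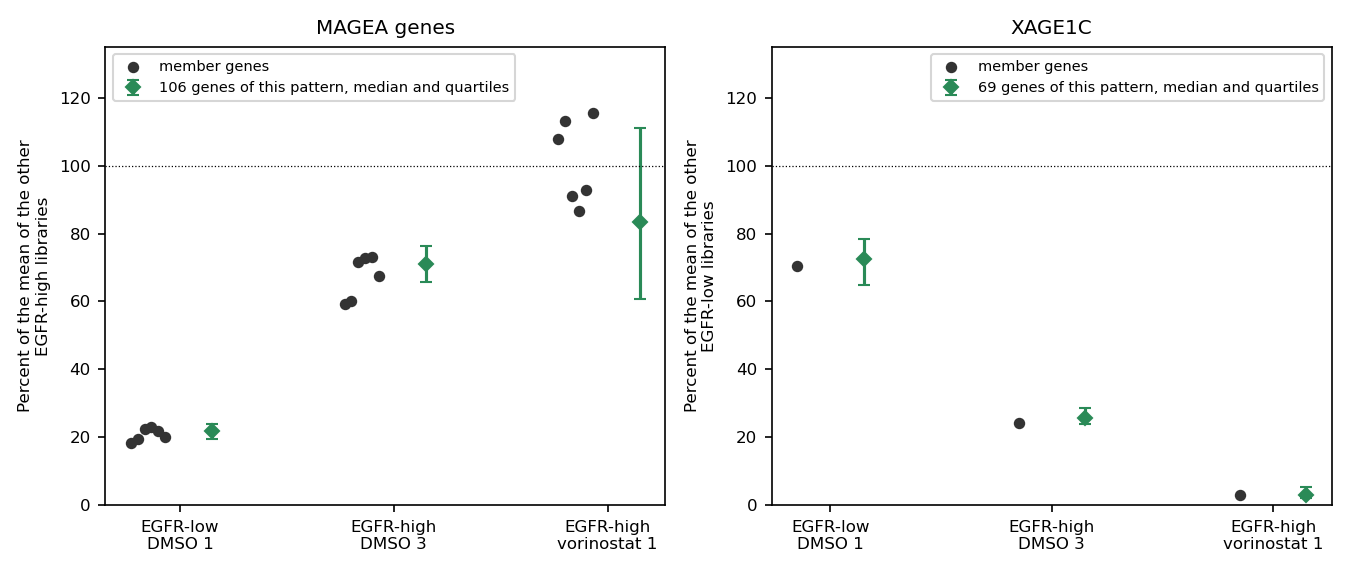
Level of the 6 expressed MAGEA genes (left) and of XAGE1C (right) in the 3 libraries that stood apart, as a percent of the mean of the other EGFR-high or EGFR-low libraries, beside the median and quartiles of all 106 or 69 genes of the same pattern. In EGFR-low DMSO replicate 1 the MAGEA genes stand at 18.2 to 23.1% and in EGFR-high DMSO replicate 3 XAGE1C stands at 24.1%, near the medians of 21.7% and 25.7%.

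MAGEA1 and MAGEA10 stayed low in the treated experiment as well. MAGEA1 was at most 0.00657 FPKM in EGFR-low cells and 0 to 0.0612 FPKM in EGFR-high cells with DMSO. It was 0.593, 0.0818 and 0.0577 FPKM in EGFR-high cells with vorinostat, the highest value being that of replicate 1, which stood apart. In that library MAGEC2 and SPANXB1, picked after their values were seen, were 3.10 and 11.96 FPKM against 0.0838 to 0.169 and 0.404 to 0.410 FPKM in the other EGFR-high vorinostat libraries, while CSAG1 and VCX3B stood at 85.1% and 94.1% of the mean of the EGFR-high libraries that did not stand apart. MAGEA10 was listed at 0 in 8 of the 12 treated libraries and reached at most 0.0459 FPKM.

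How the members stood against all genes was read from limma fits on log2(FPKM + 1), with genes called at a Benjamini-Hochberg adjusted p under 0.05. In untreated cells 6 of the 9 genes passed the filter and none was called between any groups, while 3.81% of 11305 genes were called between EGFR-low and EGFR-high, 1.6% between EGFR-low and parental and 0.0708% between EGFR-high and parental cells. The first of these shares came to 431 genes, and to 965 with the replicate number as a block, with still no member among them. As the members were chosen by their values, this is a description and does not show that they were equal between the groups. In the treated experiment 7 of 9 genes passed, XAGE1C through EGFR-low cells and 6 MAGEA genes through EGFR-high cells, and such genes had to differ. With DMSO, 51.8% of 12236 genes were called, 31.1% higher and 20.7% lower in EGFR-low cells, and with vorinostat 59% were called, 36.2% higher and 22.8% lower. In both settings XAGE1C lay higher and the 6 MAGEA genes lay lower in EGFR-low cells, which is given as a description only. The members were chosen by their values, so their distance from other genes was not tested. The median over the 9 genes was -4.03 with DMSO and -5.21 with vorinostat on the log2(FPKM + 1) scale, beside medians of 0.12 and 0.16 over all genes tested. Without the libraries that stood apart it was -5.22 and -5.11.

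**Figure D4:**
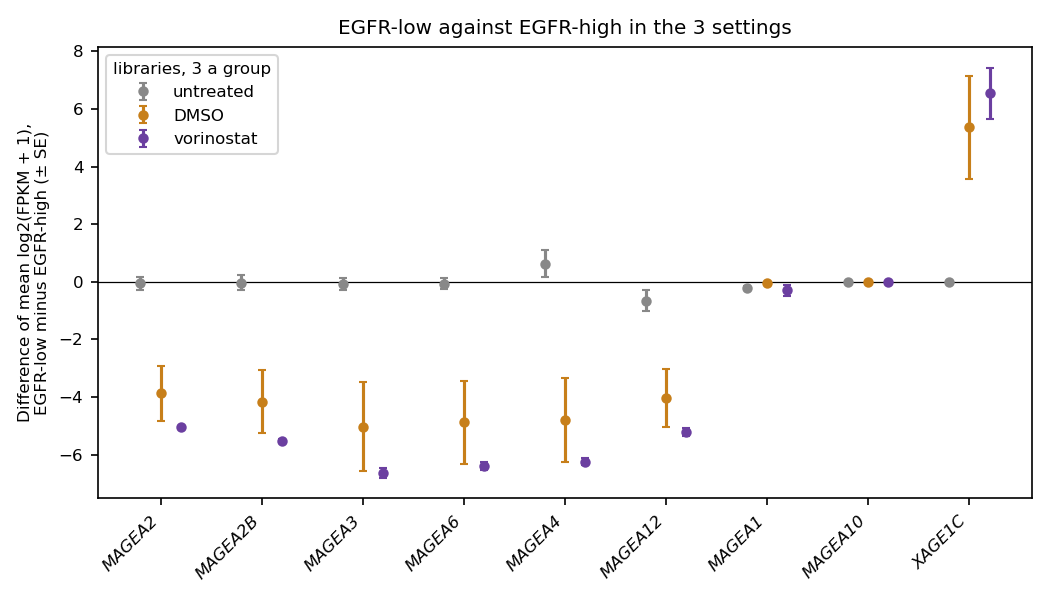
Difference of mean log2(FPKM + 1), EGFR-low minus EGFR-high, for the 9 genes in untreated, DMSO and vorinostat libraries (dots, 3 libraries a group, bars ± SE). The 6 expressed MAGEA genes lie between -0.65 and 0.63 untreated, between -5.03 and -3.87 with DMSO and between -6.64 and -5.05 with vorinostat, and XAGE1C lies at 0, 5.36 and 6.55.

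Vorinostat itself moved none of the genes past the threshold in either population. Between vorinostat and DMSO, 0% of 12236 genes were called in EGFR-low cells and 0% in EGFR-high cells by limma, with 115 and 409 genes at an unadjusted p under 0.05. The test of a difference between both responses also called 0 genes, with 215 at an unadjusted p under 0.05. Among EGFR-low cells, the MAGEA sum differed by -1.78 ± 1.77 on the log2 scale (SE), and by -0.02 ± 0.27 without DMSO replicate 1. Among EGFR-high cells it differed by 0.11 ± 0.20, and by -0.06 ± 0.15 without the libraries that stood apart. XAGE1C differed by 0.27 ± 0.25 in EGFR-low cells, 0.13 ± 0.21 without DMSO replicate 1, and by -0.93 ± 1.98 in EGFR-high cells, where it was -0.01 ± 0.04 without the libraries that stood apart. At these errors a response of the members to 1 µM vorinostat for 72 h was not detectable. H1F0, known to rise with such inhibitors, was 554 ± 75.5 FPKM with DMSO and 584 ± 85.0 FPKM with vorinostat in EGFR-low cells (SD). In EGFR-high cells it was 219 to 291 FPKM with DMSO and 213 to 472 FPKM with vorinostat. Whether the drug acted in these libraries was not tested, so these values do not tell how the members respond to an active drug.

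The other cancer-testis antigens were called in both directions. Of 179 such genes, 161 were listed and 34 were tested in the treated experiment. With DMSO, EGFR-low cells had 22 called higher and 9 called lower than in EGFR-high cells, and with vorinostat 21 and 10, of which 21 and 9 were the same genes. Of all genes tested, 31.1% were called higher and 20.7% lower with DMSO, and 36.2% and 22.8% with vorinostat. Genes of this and the later lists that were near 0 in 1 population, such as CT45A4, PRAME and VCX3A, passed the filter through the other. Such genes had to differ, so the counts are a description and no p is given for such a gene in the treated libraries. CSAG1, VCX3B, MAGEH1, TRIM31, GABRA3 and DUSP9, named below, were also under 1 FPKM in most treated libraries of 1 population. The median log2 difference of the 34 was 0.86 with DMSO, beside 0.12 over all genes tested. Leaving out the 3 libraries that stood apart gave 22 higher and 10 lower with DMSO. Leaving out any single library kept 18 of the 22 and 9 of the 9 called with DMSO.

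Among those called lower were CSAG1, whose promoter shared the block with the MAGEA genes, and the VCX family of the X chromosome short arm. The VCX genes were not among the genes found with the block, and whether the block has a part in these levels was not tested. CSAG1 was 17.3, 0.415 and 0.170 FPKM in EGFR-low and 79.4, 97.7 and 60.8 FPKM in EGFR-high cells with DMSO, a log2 difference of -4.66 ± 0.77 (SE). The largest difference was that of VCX3B, at 8.62 ± 14.9 against 124 ± 51.6 FPKM (SD, n = 3), a log2 difference of -5.29 ± 0.95 (SE). VCX3A was next, at -5.13 ± 0.91 (SE). All 3 genes were expressed in untreated EGFR-low cells, CSAG1 at 73.3 to 117 FPKM and VCX3B at 82.0 to 125 FPKM, and were not called there against EGFR-high cells. With the replicate block VCX3B and VCX3A were called higher there, VCX3B at 107 ± 22.1 against 60.1 ± 17.4 FPKM (SD; limma adjusted p = 0.023 with the block and 0.18 without) and VCX3A at 84.2 ± 22.3 against 42.7 ± 15.4 FPKM (limma adjusted p = 0.035 and 0.13). In all, 7 of the 9 genes lower with DMSO were at 1 FPKM or more in every untreated EGFR-low library.

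Among those called higher, 6 were CT45A genes and 4 were the XAGE1A, XAGE1B, XAGE1D and XAGE1E rows, which share reads with each other and with XAGE1C and are not independent counts. XAGE1B, of which XAGE1C is a RefSeq synonym, led with 120.5, 154 and 163 FPKM in EGFR-low cells with DMSO. In EGFR-high cells with DMSO it was 0.0485, 0.111 and 40.1 FPKM, a log2 difference of 5.33 ± 1.16 (SE). Pearson's r between XAGE1B and XAGE1C was 0.999988 over the 12 treated libraries. XAGE1B thus repeats the member and is given as a description, with no p. CT45A4 was 86.4, 113 and 116 FPKM against 0.0601, 0.0909 and 28.6 FPKM. PRAME, an antigen also known as a repressor of retinoic acid receptor signalling, was 22.2, 39.5 and 32.4 FPKM against 0.0235, 0.0132 and 8.95 FPKM. In each of these genes the high value in EGFR-high cells was that of DMSO replicate 3. Of the 22 genes, 13 were listed at 0 in all 9 untreated libraries.

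**Figure D5:**
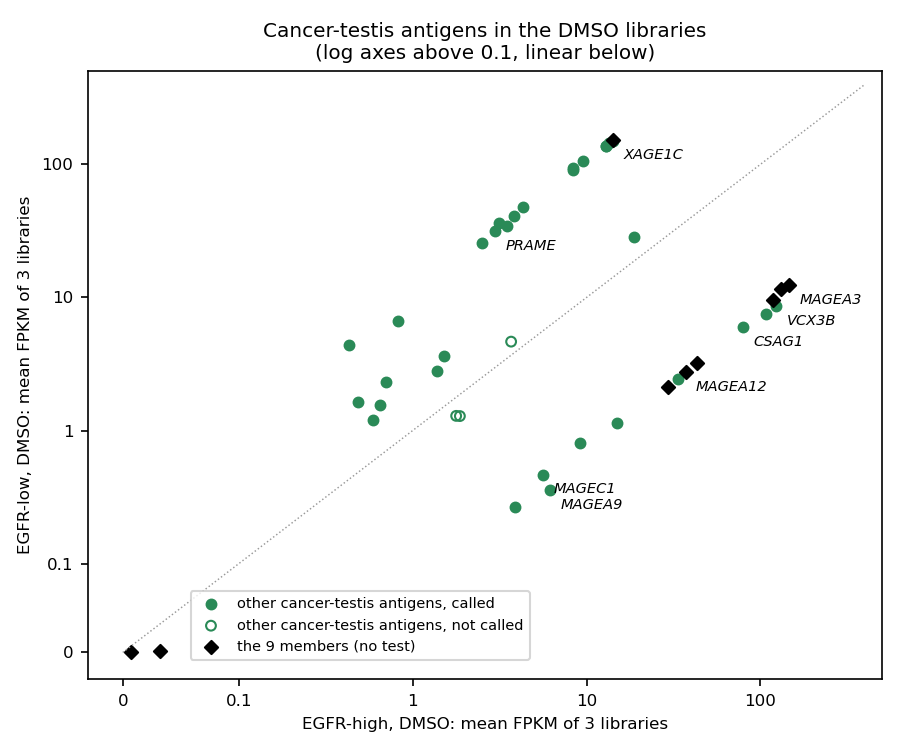
Mean FPKM of cancer-testis antigens in EGFR-high (x) and EGFR-low (y) cells with DMSO, 3 libraries each (log axes above 0.1, linear below, dotted line of equal levels). Of the 34 other antigens tested (green), 22 called genes lie above the line and 9 below, the MAGEA members (black) lie beside CSAG1 and VCX3B, and XAGE1C lies at the top.

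In untreated cells 19 other cancer-testis antigens were tested, and against EGFR-high cells 2 were called higher and 2 lower in EGFR-low cells, or 6 and 2 with the replicate block. Those called lower in the main fit were MAGEA9 and MAGEA9B, a further pair of near-identical MAGE-A copies. MAGEA9 was 0.268, 0.230 and 0.529 FPKM in EGFR-low, 1.75, 2.04 and 2.29 FPKM in EGFR-high and 2.14, 2.25 and 1.86 FPKM in parental cells. Its log2 difference was -1.18 ± 0.18 against EGFR-high and -1.20 ± 0.18 against parental cells (SE). The call against parental cells was lost without EGFR-low replicate 1. EGFR-low cells did not overlap with either other group. MAGEA9 and MAGEA9B were under 1 FPKM in EGFR-low cells and passed the filter through parental and EGFR-high cells. Their calls are therefore a description, with no p given. Whether they differed from MAGEA3 or MAGEA4 in this was not tested. Those called higher in the main fit were IL13RA2, a decoy receptor of interleukin 13, at 2.86 ± 0.573 against 0.467 ± 0.0430 FPKM (SD), and CABYR, a calcium-binding protein of the sperm tail. IL13RA2 was under 1 FPKM in EGFR-high cells and passed the filter through the other groups, so its call is a description too.

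MAGE genes outside the cancer-testis group are called type II and are expressed in many tissues. With DMSO, 2 of 5 tested were called higher in EGFR-low cells and none lower, beside 31.1% and 20.7% of all genes. MAGEH1 was 2.84 ± 0.691 against 0.235 ± 0.372 FPKM (SD), a log2 difference of 1.66 ± 0.31 (SE). NDNL2, a part of the SMC5/6 complex also named MAGEG1, was 14.1 ± 1.40 against 6.84 ± 1.06 FPKM (limma adjusted p = 0.00033). In untreated cells NDNL2 went the other way, at 1.43 ± 0.521 FPKM in EGFR-low and 3.56 ± 0.539 FPKM in EGFR-high cells (-0.92 ± 0.21, SE; limma adjusted p = 0.033, and 0.15 without EGFR-low replicate 1), and was the 1 type II gene of 4 called. MAGED1 was higher in untreated EGFR-low than in parental cells (1.65 ± 0.29, limma adjusted p = 0.017, and 0.088 without EGFR-low replicate 3).

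Of 10 genes for proteins that MAGE proteins bind or act on, 1 was called higher and 3 lower in EGFR-low cells with DMSO, beside 51.8% called among all genes, and none in untreated cells. Without the libraries that stood apart 3 were called higher and 3 lower. TRIM28, the ligase bound by MAGEA3 and MAGEA6, was 209.5 FPKM on average in EGFR-low and 84.7 FPKM in EGFR-high cells with DMSO (1.32 ± 0.19, SE; limma adjusted p = 0.00036). TRIM31 was 0.951 ± 0.797 against 8.55 ± 2.08 FPKM (SD), a log2 difference of -2.34 ± 0.33 (SE). PRKAA1, the catalytic subunit of AMPK, which TRIM28 with MAGE-A marks for degradation, was 24.6 ± 2.03 against 38.5 ± 6.57 FPKM (limma adjusted p = 0.011, and 0.054 without EGFR-high replicate 2).

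Of 24 genes listed for DNA methylation and silencing, 22 were tested, and none was called in any untreated comparison. With DMSO 6 were called higher and 2 lower in EGFR-low cells, beside 51.8% called among all genes, and without the libraries that stood apart 9 were called higher and 6 lower. DNMT3B, a de novo DNA methyltransferase, was 4.002 ± 0.285 against 1.68 ± 0.441 FPKM (SD; 0.91 ± 0.15, SE; limma adjusted p = 0.0005). HELLS, a remodeller needed for DNA methylation, was 27.3 ± 6.84 against 14.4 ± 4.92 FPKM (limma adjusted p = 0.041, and 0.15 without EGFR-high replicate 1). MBD2, a reader of methylated DNA, was 18.2 ± 1.62 against 26.7 ± 1.67 FPKM (limma adjusted p = 0.0033).

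Genes that flank the MAGEA clusters in Xq28 were called in both directions, in a share near that of all genes. Of 14 tested with DMSO, 4 were called higher and 4 lower in EGFR-low cells, beside 31.1% and 20.7% of all genes. GABRA3, a receptor subunit gene near MAGEA genes, was 1.17 ± 1.92 against 14.7 ± 3.24 FPKM (SD), a log2 difference of -3.18 ± 0.43 (SE). VMA21 was 8.52 ± 2.91 against 26.7 ± 2.79 FPKM (SD). DUSP9, a MAP kinase phosphatase, was higher at 5.68 ± 0.847 against 0.593 ± 0.832 FPKM (SD), a log2 difference of 2.18 ± 0.30 (SE). None of the 13 tested was called in untreated cells.

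The genes whose pattern was most like the summed MAGEA genes were picked among 11112 genes tested in both experiments, by the smaller of 2 Pearson correlations of log2(FPKM + 1), over the 9 untreated and over the 12 treated libraries. They were CRIP1 (r = 0.96 untreated and 0.99 treated), RPS16 (0.96 and 0.97), RPL18 (0.98 and 0.96), SMIM22 (0.96 and 0.99) and TMEM139 (0.95 and 0.99). The points share libraries and their depth, and the treated ones fall into 2 clusters, so these values only describe likeness. CRIP1 ranged from 5.05 to 37.8 FPKM untreated and from 0.754 to 20.7 FPKM treated. RPS16 and RPL18, ribosomal protein genes, ranged from 315 to 2372 and from 386 to 2158 FPKM in the untreated libraries, so the MAGEA sum rose and fell over the 9 libraries beside genes of the ribosome. Since XAGE1C was 0 in all untreated libraries its likeness could be computed only over the 12 treated ones, which was decided after its values were seen, and there it was closest to its own copies, followed by BASP1, MID1IP1, IFI16 and TFPI.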

How the data were processed

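PolyA-selected RNA of 21 libraries in 7 groups was sequenced in 2 experiments. The authors deposited 2 tables of FPKM, and per the labels' processing notes, which give no roles, STAR 2.5.1b, Cufflinks 2.2.1, DESeq2 1.10.1 and hg19 were used. The columns carry no unit, and FPKM was taken from these notes and from the values. Columns were matched to samples by title. Columns of the authors' comparisons were not used, and 0 value columns had no sample.

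Values were analysed as log2(FPKM + 1), with a filter of 1 FPKM in 3 libraries. The pseudocount understates differences of low genes. limma 3.58.1 (R 4.3.3, trend fit) was run on all groups of an experiment, and calls were made at a Benjamini-Hochberg adjusted p under 0.05. The method was checked on simulated data. SE of members came from the 2 groups compared. Python 3.11.15, numpy 2.4.6, pandas 2.3.3 and matplotlib 3.10.9 were used for description and plots. Replicates were separate experiments by the study's methods, and depth is unknown. No separate sorts are recorded for them. The SE and p-values therefore measure the spread between libraries of a sorted population, and not between sorts. Same-numbered samples deviated together, with every correlation above 0.1, in untreated EGFR-low against EGFR-high (0.34, 0.73 and 0.69), in EGFR-low against EGFR-high with vorinostat and in EGFR-low with vorinostat against DMSO, so blocked fits were also run.

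The members and the gene lists were chosen with earlier results of these data known. Named beside the 9 members were at most 3 genes of a list called in each direction of a comparison, by size of difference, and the 5 genes most like the MAGEA sum. MAGEC2, SPANXB1, CT45A4 and PRAME and a few list genes past the third were named after their values were seen. Alternatives were other pseudocounts (0.1 and 5), other filters, a fit on the 2 groups compared, the replicate block, each replicate left out, and, chosen after seeing the data, the 3 libraries that stood apart left out. Sequences are from RefSeq (GRCh38.p14), and the files' build differs, so no coordinates were taken across builds. MAGEA1 and MAGEA10 are named without a promoter.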

Additional observations from a re-analysis of the deposited data

Results flagged for a closer look

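For MAGEA1, MAGEA2 and MAGEA2B every vorinostat library of EGFR-low cells lay below the mean of its DMSO libraries and every one of EGFR-high cells above it, with no gene called in either response. The response in EGFR-low minus that in EGFR-high was -0.25 for MAGEA1, -1.18 for MAGEA2 and -1.35 for MAGEA2B on the log2(FPKM + 1) scale with all libraries. MAGEA2 and MAGEA2B were among the 12236 genes in the limma test of this difference, which called 0 genes with 215 at an unadjusted p under 0.05, and for MAGEA1, which did not pass the filter, the difference was not tested. Without the libraries that stood apart the pattern was gone for both genes, as the responses were 0.01 ± 0.02 (SE) in EGFR-low and -0.01 ± 0.15 in EGFR-high cells for MAGEA2, and -0.03 ± 0.04 and -0.06 ± 0.10 for MAGEA2B. MAGEA1 stayed under 0.6 FPKM in all of these libraries.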

How the results depend on the processing

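In untreated cells 431 genes were called for EGFR-low against EGFR-high, and 660 with no filter, 206 with a filter of 5 FPKM, 965 with the replicate block and 205 to 337 with 1 replicate left out, lowest without EGFR-low replicate 1. The other cancer-testis antigens called went from 4 to 0 with the filter of 5 FPKM and to 8 with the block. Against parental cells, EGFR-low cells had 181 genes called, and 331 with no filter, 82 with the filter of 5 FPKM, 107 with only the 2 groups fitted, 525 with the block and 67 to 252 with 1 replicate left out, lowest again without EGFR-low replicate 1. Their cancer-testis antigens called were 5 with no filter, 0 with the filter of 5 FPKM and 1 to 3 with 1 replicate left out. EGFR-high against parental cells had 8 genes called, and 15, 3 and 2 with no filter, the filter of 5 FPKM and only 2 groups, and 2 to 8 with 1 replicate left out. The median over the 9 members was -5.51 and -2.56 with DMSO, and -7.60 and -3.12 with vorinostat, with pseudocounts of 0.1 and 5, as a smaller pseudocount widens differences from low values. Leaving out 1 replicate gave -5.01 to -3.52 with DMSO and -5.35 to -5.11 with vorinostat. The block moved no other count of all genes or of cancer-testis antigens by over 1.5 times. In the other lists it moved the MAGE partners called higher with DMSO from 1 to 2, the type II genes called lower with DMSO from 0 to 1 and those called higher against parental cells from 1 to 2, and the DNA methylation genes called lower with vorinostat from 3 to 5. With no filter, 1 gene was called between vorinostat and DMSO in EGFR-low cells and 1 for the difference of responses. The causes of the other changes were not tested. Unknown depth limits what can be said of genes under 1 FPKM.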
